A study of Mus musculus with 2 samples.

Results

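The Nr4a nuclear receptors are the 3 genes Nr4a1 (also called Nur77), Nr4a2 (Nurr1) and Nr4a3 (Nor1). They were taken by symbol from the gene lists of both libraries, which held all 3 of them among 31053 genes. They were followed across the cell types of the mouse colonic lamina propria, the layer below the gut lining where intestinal immune cells gather. The study used single-cell RNA sequencing to ask how the long noncoding RNA lncly6c (gene 1700016P04Rik) bears on the passage of Ly6C-high monocytes into macrophages, and its title names C/EBP factors and Nr4a1 in that passage.

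One library came from lncly6c-deficient mice and the other from wild-type mice. Both groups were male C57BL/6 mice aged 6 to 8 weeks, kept under specific pathogen-free conditions. The deficient mice carried a CRISPR-Cas9 deletion of the whole gene, made on the C57BL/6J background by cutting on both sides of it, so the loss is in every cell and not in 1 lineage. How many animals went into each library is not given in the sources used here. The labels and the file names gave the genotypes the opposite way round: the library labelled deficient sat in files named for the wild type, and the library labelled wild type in files named for the knockout. The libraries are therefore called deficient-labelled and wild-type-labelled throughout, and every direction given here would turn round if the file names were right. The deleted gene could not settle it, since lncly6c had 0 UMIs in the deficient-labelled library and 0 UMIs in the wild-type-labelled library, which allows shares of up to 0.0489% and 0.0993% of their barcodes. A UMI is a molecular barcode that counts 1 captured RNA molecule.

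Nr4a receptors are orphan nuclear receptors: they bind DNA through a zinc-finger domain and are active without a known physiological ligand in the usual pocket, so their activity follows largely from how much of them a cell makes. They are immediate-early genes, switched on within minutes to hours by antigen-receptor, calcium, cyclic AMP and inflammatory signals, in part through CREB, MEF2 and SRF. In the mouse, Nr4a1 is needed for the Ly6C-low patrolling monocyte, Nr4a1 in lymphocytes tracks antigen-receptor signalling, and Nr4a3 has been tied to the migration of dendritic cells. The members can bind the same element, called NBRE, as monomers, and Nr4a1 and Nr4a2 also pair with the retinoid X receptors.

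Bases upstream of the start of each gene are shown because all of the members are read here as signal-dependent genes, and the capitals mark every CRE core (TGACG, or CGTCA on the other strand), the short element bound by CREB. The sequences are from RefSeq on GRCm38.p6, cover chr15:101266596-101266845 on the plus strand for Nr4a1, chr2:57124004-57124253 on the minus strand for Nr4a2 and chr4:48045055-48045152 on the plus strand for Nr4a3, and leave out bases that lie in annotated exons.
Nr4a1: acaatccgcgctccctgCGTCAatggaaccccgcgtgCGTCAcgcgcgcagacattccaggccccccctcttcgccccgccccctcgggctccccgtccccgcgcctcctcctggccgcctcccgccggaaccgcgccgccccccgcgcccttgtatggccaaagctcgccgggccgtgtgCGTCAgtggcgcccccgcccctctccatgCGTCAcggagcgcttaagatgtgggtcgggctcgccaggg
Nr4a2: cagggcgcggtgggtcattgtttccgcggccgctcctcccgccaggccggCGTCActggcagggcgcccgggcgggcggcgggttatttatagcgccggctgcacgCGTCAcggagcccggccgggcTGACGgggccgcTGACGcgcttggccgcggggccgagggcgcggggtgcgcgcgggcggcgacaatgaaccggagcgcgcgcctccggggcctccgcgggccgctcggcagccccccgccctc
Nr4a3: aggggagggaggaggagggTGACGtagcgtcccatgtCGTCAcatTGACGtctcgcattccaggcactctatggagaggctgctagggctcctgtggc

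Each of the genes held 4 CRE cores in the 250 bases before its RefSeq start, and 3 of those of Nr4a3 lie in the stretch printed. Among 32851 such windows of all genes, 17.8% held at least 1 core and 45 windows, 0.137%, held 4 or more. The full CRE TGACGTCA (in 1.55% of all windows), the C/EBP pattern TTGCNNAA (9.56%) and the NBRE pattern AAAGGTCA (1.34%), each searched on both strands, had no match in the windows of the members. A full CRE would also count as a pair of cores. These are letter matches in 1 window and show no binding. In the mm10 annotation, which has the same coordinates, Nr4a1 lies at chr15:101254269-101274795 on the plus strand, Nr4a2 at chr2:57106830-57124003 on the minus strand and Nr4a3 at chr4:48045153-48086447 on the plus strand, and 0 other annotated genes overlap any of them. The Nr4a1 window lies inside the span of that gene, because the annotation also starts the gene further upstream than the RefSeq start used here; the stretches printed for Nr4a2 and Nr4a3 end at the base just before theirs.

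In the deficient-labelled library 54773076 UMIs came from 6133 barcodes, and in the wild-type-labelled library 23384895 UMIs from 3020. After barcodes with over 20% mitochondrial UMIs or under 200 genes were left out, 5890 deficient-labelled and 2610 wild-type-labelled cells remained, with medians of 7849 and 6205 UMIs; 7 barcodes occurred in both libraries. A cell entered a class when it held UMIs of at least 3 of that class's markers and more markers of it than of any other class. This gate left 23.9% of deficient-labelled and 29.3% of wild-type-labelled cells without a class. The classes are named X-like. With 1 library for each genotype there is no replicate and no test: intervals are 95% exact intervals that cover counting error only, and a difference between the libraries cannot be told apart from a difference between any 2 preparations. Levels are in CPM, the UMIs of a gene scaled to 1000000 UMIs of the class. Each log2 ratio divides the deficient-labelled CPM by the wild-type-labelled CPM. It is given for the 8 classes that reached 50 cells in both libraries, and counted as different only past 1.5-fold.

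Over all kept cells, Nr4a3 gave the most UMIs and Nr4a1 the fewest; with 3' tags these do not grow with transcript length. Nr4a1 stood at 261 CPM in the deficient-labelled library and 369 in the wild-type-labelled library. Nr4a2 stood at 358 and 459.9 CPM in the same order of libraries, and Nr4a3 at 578 and 714. Each was seen in most cells, Nr4a1 in 64.2% of deficient-labelled and 64.4% of wild-type-labelled cells. These totals mix the cell types, whose makeup differed between the libraries: neutrophil-like cells were 2.28% of the deficient-labelled and 10.9% of the wild-type-labelled cells, and B cell-like cells 8.71% and 3.14%.

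**Figure D1:**
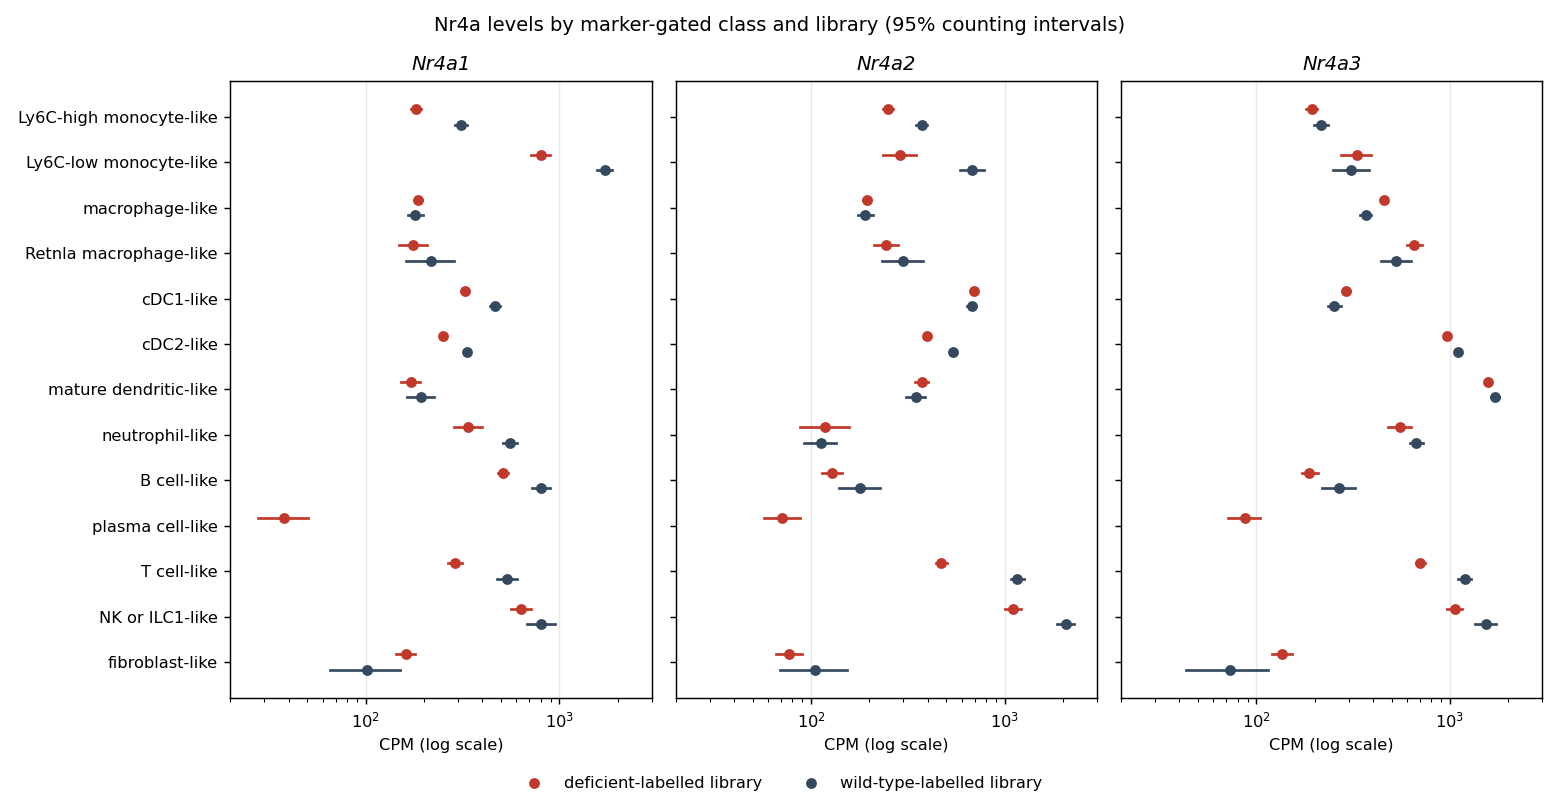
CPM (log axis) of Nr4a1, Nr4a2 and Nr4a3 in the classes with at least 20 cells, red for the deficient-labelled and dark blue for the wild-type-labelled library; bars are 95% counting intervals. Nr4a1 was highest among these classes in Ly6C-low monocyte-like cells at 800.1 (deficient-labelled) and 1716 (wild-type-labelled), Nr4a2 in NK or ILC1-like cells and Nr4a3 in mature dendritic-like cells; the small plasma cell-like class had the lowest values in the deficient-labelled library, with an interval that overlapped the fibroblast-like one for Nr4a2.

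Nr4a1, which in mice is required for Ly6C-low monocytes, was dense in the cells that carry that name here. The 49 deficient-labelled and 44 wild-type-labelled Ly6C-low monocyte-like cells, marked by Ace, Treml4 and Cd300e, held 800.1 and 1716 Nr4a1 CPM. The Ly6C-high monocyte-like cells, marked by Ly6c2 and Ccr2, held 182 (631 deficient-labelled cells) and 311 (270 wild-type-labelled cells). Macrophage-like cells, marked by the complement genes C1qa to C1qc and Adgre1, held 187 and 180.4. Nr4a1 was thus several-fold denser in the Ly6C-low than in the Ly6C-high class of either library, and macrophage-like cells sat at the Ly6C-high level in the deficient-labelled library and below it in the wild-type-labelled one.

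The few ILC2-like cells, type 2 innate lymphoid cells, were higher still for Nr4a1, at 1809 CPM in 17 deficient-labelled cells and 2047 in 8 wild-type-labelled cells. Among classes of at least 50 cells in the deficient-labelled library the order of Nr4a1 ran from NK or ILC1-like cells (636) to B cell-like cells (512), then neutrophil-like (339), cDC1-like (324) and T cell-like cells (288). The intervals of neighbours among the last 3 of these overlapped. Next came cDC2-like cells (249.8), and macrophage-like, Ly6C-high monocyte-like, Retnla macrophage-like, mature dendritic-like and fibroblast-like cells lay together between 161 and 187 with neighbouring intervals that overlapped. Plasma cell-like cells closed the order at 38. In the wild-type-labelled library 8 classes reached 50 cells. B cell-like cells led these at 805, apart from neutrophil-like (554), T cell-like (537) and cDC1-like cells (465). Mature dendritic-like (192) and macrophage-like cells (180.4) were lowest of them. NK or ILC1-like cells, left out there with 38 cells, held 805 as well (678 to 949).

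Nr4a2 is best known for dopamine neurons and is induced in lymphocytes by antigen-receptor signals. Among classes of at least 50 deficient-labelled cells it was densest in NK or ILC1-like, T cell-like and cDC1-like cells. Smaller classes reached like levels. ILC2-like cells held 772 CPM in 17 deficient-labelled and 1153 in 8 wild-type-labelled cells. ILC3-like cells held 564 and 845 in 10 and 6 cells, and Ly6C-low monocyte-like cells 288 and 679. NK or ILC1-like cells held 1104 CPM in 100 deficient-labelled cells and 2064 in 38 wild-type-labelled cells. T cell-like cells held 470.3 and 1161. cDC1-like cells, the Xcr1 and Clec9a dendritic cells that cross-present antigen, held 689.8 and 674, so they came before T cell-like cells in the deficient-labelled library and after them in the wild-type-labelled library. cDC2-like cells followed at 399 and 542. At the low end, B cell-like cells held 128 and 179 and neutrophil-like cells 118 and 112.

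Nr4a3 was densest in mature dendritic-like cells. Mature dendritic-like cells, the Ccr7 and Fscn1 cells that travel to lymph nodes, held 1564 CPM in 158 deficient-labelled cells and 1705 in 57 wild-type-labelled cells, apart from every other class of at least 50 cells. cDC2-like cells held 959.5 and 1099.6, T cell-like cells 703 and 1189.9, and NK or ILC1-like cells 1056 and 1526. cDC1-like cells were lower, at 289 and 253, so the conventional dendritic subsets stood well apart in both libraries. Neutrophil-like cells held 549 and 671, macrophage-like cells 455 and 366, and Ly6C-high monocyte-like cells 193 and 215.

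**Figure D2:**
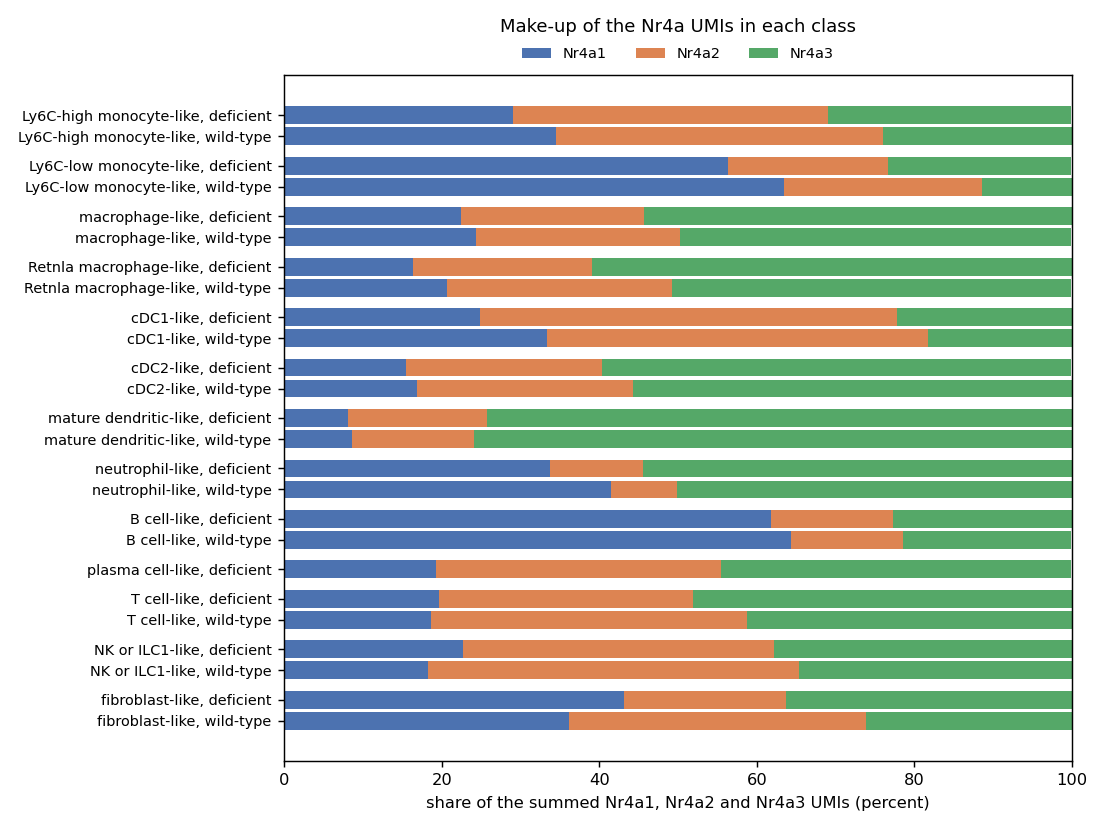
Share (percent) of the summed Nr4a UMIs that came from Nr4a1 (blue), Nr4a2 (orange) and Nr4a3 (green) in each class, the deficient-labelled library above the wild-type-labelled one; classes with under 20 cells in a library have no bar for it. In the 8 compared classes the leading member was the same in both libraries, with Nr4a1 leading in B cell-like, Nr4a2 in cDC1-like and Nr4a3 in mature dendritic-like cells; in fibroblast-like cells it was Nr4a1 (43.1%) in the deficient-labelled and Nr4a2 (37.7%) in the wild-type-labelled library.

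The share of each member in the family's UMIs does not depend on the total of the class. Nr4a1 made up 61.8% of the family in deficient-labelled and 64.3% in wild-type-labelled B cell-like cells, and 56.4% and 63.5% in Ly6C-low monocyte-like cells, where Nr4a3 made up 23.2% (19.7% to 27.1%) and 11.4% (9.26% to 13.9%). Nr4a2 made up 53% and 48.4% in cDC1-like cells. Nr4a3 made up 74.2% and 76% in mature dendritic-like cells, 59.6% and 55.7% in cDC2-like cells and 54.4% and 49.6% in macrophage-like cells. In Ly6C-high monocyte-like cells no member held a majority: Nr4a2 had 40% and 41.5%, Nr4a1 29.1% and 34.5% and Nr4a3 30.8% and 24%. Between the libraries the leading member was the same in each of the 8 compared classes. The largest shift among these classes was in cDC1-like cells, where Nr4a1 made up 24.8% (interval 23.9% to 25.8%) in the deficient-labelled and 33.4% (31.8% to 35.1%) in the wild-type-labelled library.

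Finer clusters of all kept cells gave the levels of the members in smaller groups. The cells were grouped into 27 clusters, which gave the gated class to 87.9% of the gated cells that fell in a named cluster; the clusters were made from all variable genes, so their levels are descriptions. The clusters are not parts of the gates: 52.9% to 71.9% of the cells in the 4 clusters named cDC2 were cDC2-like by the gate. Of these clusters, the Plet1 and Itgae one, the intestinal CD103-bearing form, held 1414 and 1538 Nr4a3 CPM. The Cd209a and Mgl2 cluster held 968 and 1097, the cycling cluster led by Top2a 573 and 618, and the Cd209d and Clec10a cluster 188 and 217. Nr4a1 ran exactly the other way over these 4 clusters in both libraries, with 163 and 236 in the Plet1 cluster, 246 and 347 in the Cd209a cluster, 288 and 398 in the cycling cluster and 507 and 515 in the Cd209d cluster.

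Among macrophage clusters, the one led by C1qa and Mmp13 held 512 Nr4a3 CPM in deficient-labelled and 357 in wild-type-labelled cells. The one led by the inflammatory genes Inhba, Ptgs2 and Il1a held 339 and 522, so these clusters differed between libraries in opposite directions. By the gate, 95.6% of the cells of the C1qa cluster and 60.9% of those of the Inhba cluster were macrophage-like. Within the Ly6C-high monocyte clusters, a cluster led by Ccnb1ip1, Cx3cr1 and F13a1 had the most Nr4a1, 484 and 554 CPM, and the least Nr4a3, 62.8 and 33. The largest Ly6C-high cluster held 170.2 and 271 Nr4a1 CPM, and 188 and 241 of Nr4a3. The interferon-gene cluster led by Rsad2 held 236 and 273 of Nr4a1.

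Set side by side, the libraries stood more than 1.5-fold apart in more classes for Nr4a1 than for its relatives. Over the 24 pairs of a member and a class, 6 had a deficient-labelled level more than 1.5-fold below the wild-type-labelled one and 0 had it more than 1.5-fold above. Of all measured genes in these classes, 4.95% to 11.0% were over 1.5-fold lower and 5.30% to 18.0% over 1.5-fold higher. With clusters in place of gates or means over cells, Nr4a2 in neutrophil-like cells was over 1.5-fold higher instead (log2 ratios 0.68 and 0.93). Nr4a1 supplied 4 of the 6, in neutrophil-like, Ly6C-high monocyte-like, B cell-like and T cell-like cells, and the others were Nr4a2 and Nr4a3 in T cell-like cells. The counting interval lay below 0 for Nr4a1 in 6 of 8 classes, for Nr4a2 in 4 and for Nr4a3 in 6, and above 0 for Nr4a3 in 2.

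**Figure D3:**
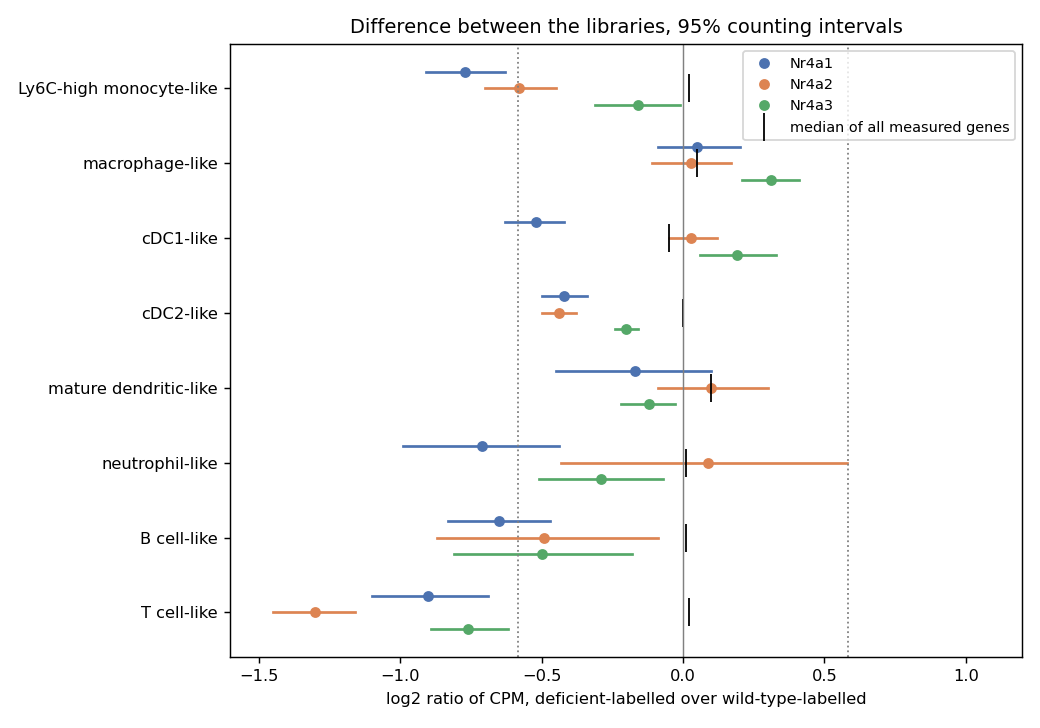
Log2 of the deficient-labelled CPM divided by the wild-type-labelled CPM for Nr4a1 (blue), Nr4a2 (orange) and Nr4a3 (green) in the 8 classes that reached 50 cells in both libraries; bars are 95% counting intervals, black ticks the median of all measured genes of the class and dotted lines 1.5-fold. Nr4a1 lay left of its class median except in macrophage-like cells, where it stood at 0.05, the same as that median.

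In Ly6C-high monocyte-like cells, where the study places its question, Nr4a1 was lower in the deficient-labelled library, with 182 CPM against 311 in the wild-type-labelled library (log2 ratio -0.77, interval -0.91 to -0.63). Of 7260 genes measured in this class, 7.0% were over 1.5-fold lower and 7.93% over 1.5-fold higher, and 3.51% of them had a lower ratio than Nr4a1. Nr4a2 stopped just short of 1.5-fold at 250.1 against 373 (log2 ratio -0.58, -0.70 to -0.45), and passed it in 5 of 10 alternatives. Nr4a3 stood at 193 against 215 (-0.16, -0.31 to -0.01). MHC class II UMIs moved with this class: over 5 UMIs of H2-Aa, H2-Ab1, H2-Eb1 and Cd74 together were found in 97.1% of deficient-labelled and 60.7% of wild-type-labelled cells, and their part in the result was not tested.

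In macrophage-like cells Nr4a1 did not differ beyond counting error, at 187 CPM in the deficient-labelled library against 180.4 in the wild-type-labelled library (log2 ratio 0.05, -0.09 to 0.20). Nr4a2 did not either, at 195 against 191 (0.03, -0.11 to 0.17). Nr4a3 was higher in the deficient-labelled library, at 455 against 366 (0.31, 0.21 to 0.41), without reaching 1.5-fold; with clusters in place of gates this ratio was 0.04. Of 9050 measured genes, 5.05% were over 1.5-fold lower and 9.57% over 1.5-fold higher.

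The Ly6C-low monocyte-like class was too small for a comparison by the rule of 50 cells. With at least 20 cells allowed, a choice made after the data were seen, its Nr4a1 log2 ratio was -1.10 (-1.31 to -0.89) and its Nr4a2 ratio -1.24 (-1.59 to -0.89). Over 5 MHC class II UMIs were found in 95.9% of its deficient-labelled and 56.8% of its wild-type-labelled cells, and their part in the result was not tested. In the Ace and Treml4 cluster the Nr4a1 ratio was -0.73, with 819.5 CPM in 60 deficient-labelled cells and 1357 in 64 wild-type-labelled cells. Nr4a3 stood at 329 against 309 by the gate (0.09, -0.31 to 0.51), but at 262 against 336 in the cluster, and 6 of 10 alternatives kept the sign of the gate.

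Among dendritic cells the differences were small. In cDC1-like cells Nr4a1 was lower in the deficient-labelled library, at 324 against 465 CPM in the wild-type-labelled library (-0.52, -0.63 to -0.42), while Nr4a2 was level at 689.8 against 674 (0.03, -0.05 to 0.12) and Nr4a3 slightly higher at 289 against 253 (0.19, 0.06 to 0.33, and 0.04 with clusters); 7.46% of measured genes were over 1.5-fold lower and 5.30% higher. In cDC2-like cells Nr4a1 (-0.42) and Nr4a2 (-0.44) were lower by like amounts and Nr4a3 by less (-0.20, -0.24 to -0.16), in a class where 4.95% of genes were over 1.5-fold lower and 5.74% higher. In mature dendritic-like cells Nr4a1 (-0.17, -0.45 to 0.10) and Nr4a2 (0.10, -0.09 to 0.30) did not differ beyond counting error and Nr4a3 stood at -0.12 (-0.22 to -0.03). The median of all measured genes of that class was 0.10, with 6.72% over 1.5-fold lower and 14.0% higher.

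In B cell-like cells all of the members were lower in the deficient-labelled library. Nr4a1 held 512 CPM against 805 in the wild-type-labelled library (-0.65, -0.83 to -0.47), Nr4a2 128 against 179 (-0.49, -0.87 to -0.09) and Nr4a3 188 against 267 (-0.50, -0.81 to -0.18). Here 8.91% of measured genes were over 1.5-fold lower and 16.3% higher. Neutrophil-like cells parted the members. Nr4a1 held 339 against 554 (-0.71, -0.99 to -0.44), which fell short of 1.5-fold with clusters (-0.58) or without the highest doublet scores (-0.57). In the same cells the other members were closer, with Nr4a3 at 549 against 671 (-0.29, -0.51 to -0.07) and Nr4a2 at 118 against 112 (0.09, -0.43 to 0.58). In that class 9.22% of measured genes were over 1.5-fold lower and 13.3% higher, and over 5 MHC class II UMIs were found in 52.2% of deficient-labelled and 13.3% of wild-type-labelled cells; their part in the result was not tested.

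T cell-like cells held the widest gaps. Nr4a2 stood at 470.3 CPM in the deficient-labelled library against 1161 in the wild-type-labelled library (-1.30, -1.45 to -1.16), Nr4a1 at 288 against 537 (-0.90, -1.10 to -0.69) and Nr4a3 at 703 against 1189.9 (-0.76, -0.89 to -0.62). Of the measured genes, 11.0% were over 1.5-fold lower and 18.0% higher, and 0.703% had a lower ratio than Nr4a2. The gate did not hold the same kind of barcode in both libraries: 77.3% of its deficient-labelled and 17.6% of its wild-type-labelled cells had over 5 MHC class II UMIs. Among the 60 deficient-labelled and 70 wild-type-labelled cells without them, Nr4a2 held 474 against 1097 CPM (-1.21, -1.51 to -0.92), nearly as far apart. Nr4a1 held 328 against 480.1 (-0.55, -0.94 to -0.18) and Nr4a3 857 against 1182 (-0.46, -0.70 to -0.23), and neither passed 1.5-fold there. With clusters in place of gates the Nr4a3 ratio was -0.54. In NK or ILC1-like cells, with only 38 in the wild-type-labelled library, Nr4a2 again stood furthest apart, at 1104 against 2064 (-0.90), with Nr4a3 at 1056 against 1526 (-0.53) and Nr4a1 at 636 against 805 (-0.34); over 5 MHC class II UMIs were found in 53% of deficient-labelled and 13.2% of wild-type-labelled cells of this class, and their part in the result was not tested.

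Outside the blood lineages the counts were thinner. Fibroblast-like cells, the stromal cells marked by collagens and Pdgfra, held 161 CPM of Nr4a1 in 265 deficient-labelled cells and 101 in 20 wild-type-labelled cells, and 135 and 73 CPM of Nr4a3. The Nr4a3 log2 ratio of that class turned from 0.89 to -0.77 without the highest doublet scores, so its direction is not settled. Epithelial-like cells held 654 and 528 CPM of Nr4a1 in 20 and 13 cells, with up to 61 Nr4a1 UMIs in 1 deficient-labelled cell. The same cells had Nr4a3 at 129 CPM in the deficient-labelled library and 0 UMIs in the wild-type-labelled library, which allows up to 20.1 CPM. The epithelial cluster ran the other way, at 102 CPM in 25 deficient-labelled cells and 308 CPM in 22 wild-type-labelled cells, so no direction is given for Nr4a3 there.

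**Figure D4:**
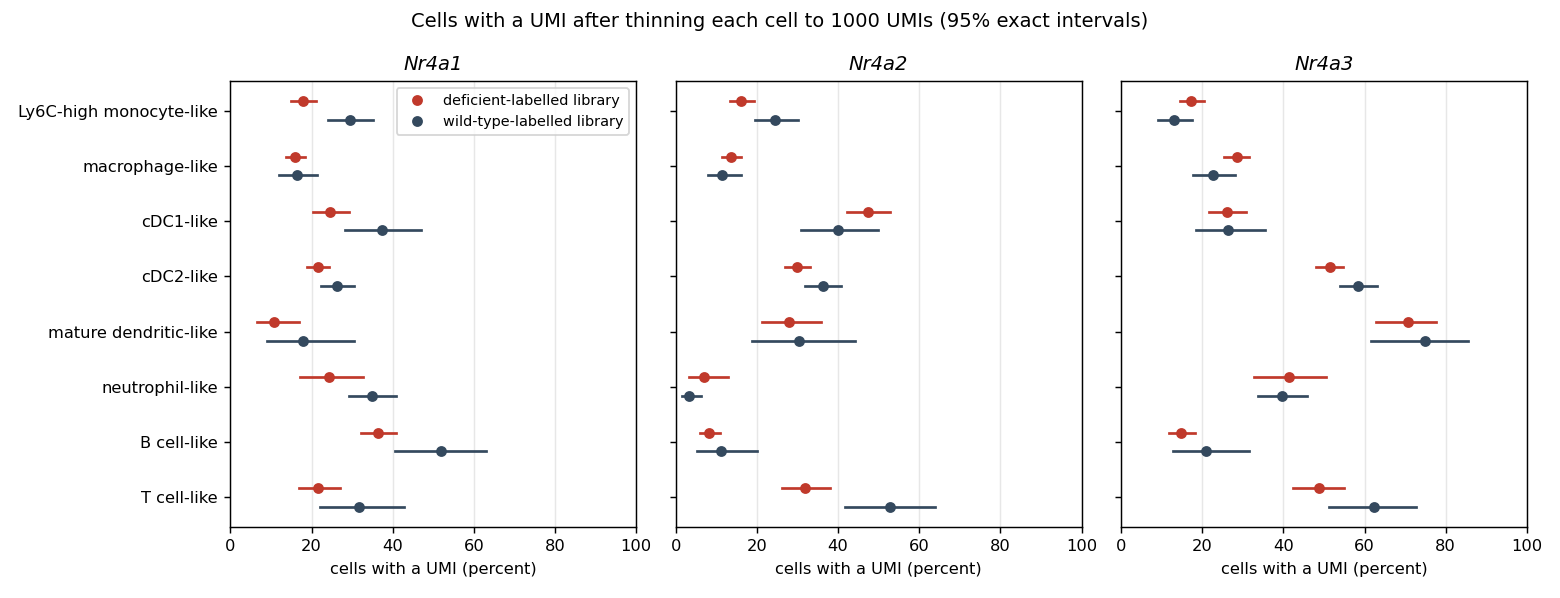
Percent of cells with a UMI of each member after every cell was thinned to 1000 UMIs, red for the deficient-labelled and dark blue for the wild-type-labelled library, in the 8 compared classes; bars are 95% exact binomial intervals. Mature dendritic-like cells reached 70.7% and 75% for Nr4a3, and neutrophil-like and B cell-like cells lay at the low end for Nr4a2.

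Depth differed between classes and libraries, so the share of cells with a UMI was taken after each cell was thinned to 1000 UMIs, shallower cells being left out (at most 19 of a compared class in a library). Plasma cell-like cells, the class with the lowest levels, gave the low mark: 2% of 50 deficient-labelled cells for Nr4a1, 8% for Nr4a2 and 4% for Nr4a3, from a median of 21876 UMIs before thinning. In Ly6C-high monocyte-like cells Nr4a1 was seen in 18% of deficient-labelled (interval 15% to 21.2%) and 29.4% of wild-type-labelled cells (24% to 35.2%); unthinned, at medians of 7816 and 10079 UMIs, the shares were 60.2% and 79.3%. In macrophage-like cells it was seen in 15.9% and 16.4%, and unthinned, at medians of 7955 and 8344 UMIs, in 58.5% and 53.9%. In B cell-like cells the Nr4a1 shares were 36.4% and 51.9%, and unthinned, at medians of 3607 and 4436 UMIs, 71.3% and 82.9%.

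Nr4a3 was seen in 51.5% of deficient-labelled and 58.5% of wild-type-labelled cDC2-like cells, and unthinned, at medians of 12494 and 14898 UMIs, in 90.7% and 92.2%. Nr4a2 was seen in 31.9% of deficient-labelled and 52.9% of wild-type-labelled T cell-like cells, and unthinned, at medians of 5096 and 5840 UMIs, in 67.8% and 77.6%. Neutrophil-like cells had Nr4a2 in 7.03% and 3.31% and B cell-like cells in 8.22% and 11.1%. Those shares overlap the plasma cell-like mark of 8% (2.22% to 19.2%), which rests on few cells and is not a measured background, and no order is read from them. The summed level still set deficient-labelled B cell-like cells (128 CPM, 114 to 144) above plasma cell-like cells (71.1 CPM, 57 to 87.6). Both measures are relative to a cell's total, and Jchain, Igha and Igkc led the plasma cell-like class. Unthinned, Nr4a2 was seen in 28.3% of deficient-labelled plasma cell-like and 22.4% of B cell-like cells, at medians of 21876 and 3607 UMIs. The thinned Nr4a1 shares in neutrophil-like and B cell-like cells lay well above the plasma cell-like mark.

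Within a class the UMIs were uneven between cells. In deficient-labelled mature dendritic-like cells the median cell held 18 Nr4a3 UMIs and the highest 90, and in wild-type-labelled ones 26 and 73. The 10% of cells with the most Nr4a3 held 26.1% and 23.1% of the UMIs of that class. For Nr4a3 in macrophage-like cells those 10% held 50.5% and 54.4%, around medians of 2 and 1 UMIs per cell. Nr4a2 in wild-type-labelled neutrophil-like cells was the extreme: all 111 of its UMIs lay in 24 of 285 cells, with 24 in 1 cell. In Ly6C-low monocyte-like cells the median cell held 5 Nr4a1 UMIs in the deficient-labelled and 12 in the wild-type-labelled library, at medians of 6482 and 6439 UMIs per cell, and after thinning 51% and 30.2% of them had none.

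Whether the members were seen in the same thinned cells varied between classes and libraries. Thinning turns many cells into cells without a UMI. In deficient-labelled macrophage-like cells Nr4a1 was seen in 15.9% after thinning and 58.5% before it. The strength of a tie between members therefore cannot be read from these shares. In thinned deficient-labelled cDC1-like cells, Nr4a2 was seen in 64.3% of cells with Nr4a3 (54% to 73.7%) and in 41.5% of cells without (35.7% to 47.6%), but in the wild-type-labelled library the shares were 41.4% and 39.5%. In deficient-labelled macrophage-like cells Nr4a2 was seen in 21.7% of cells with Nr4a1 (15.2% to 29.3%) and 12.2% of cells without (9.92% to 14.7%), and in wild-type-labelled ones in 9.09% and 12%. In deficient-labelled cDC2-like cells Nr4a1 was seen in 18.9% of cells with Nr4a3 (15.4% to 22.9%) and 24.3% of cells without (20.3% to 28.6%), and in wild-type-labelled ones in 28.3% and 23.5%. In deficient-labelled fibroblast-like cells Nr4a2 was seen in 35% of the 20 cells with Nr4a3 (15.4% to 59.2%) and 4.94% of cells without (2.58% to 8.47%), with no wild-type-labelled value. No pair kept intervals apart in both libraries of a class.

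**Figure D5:**
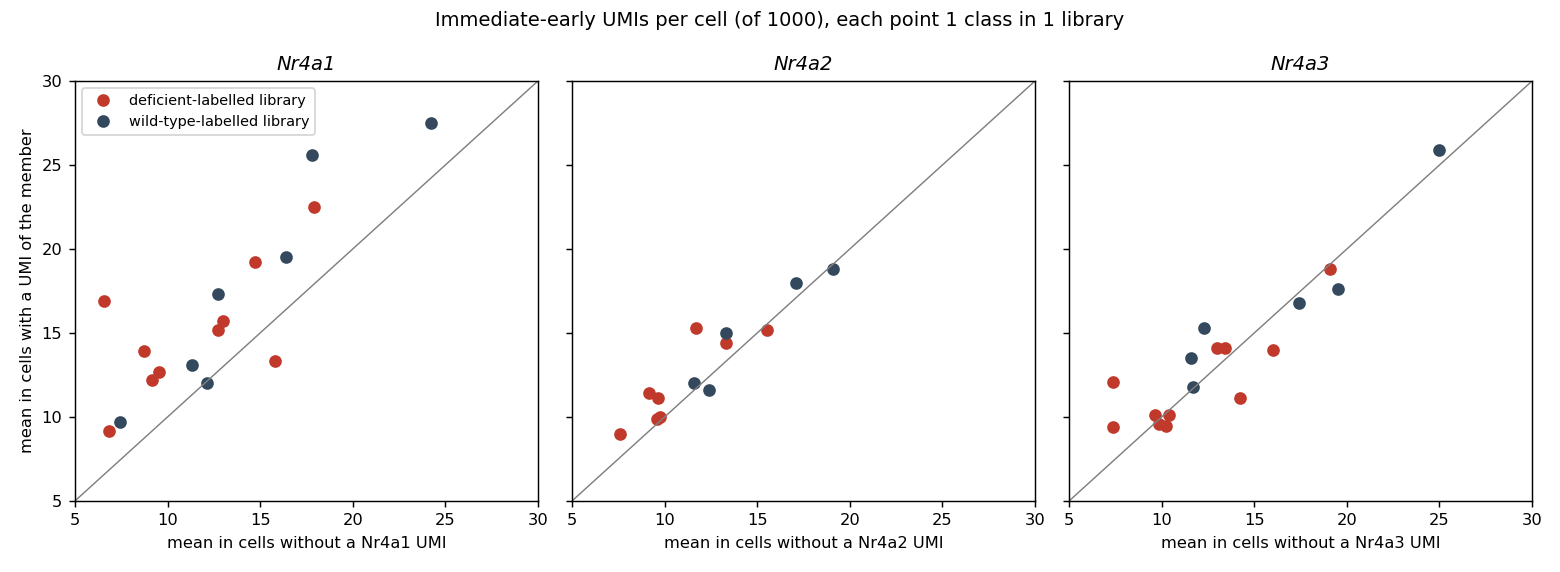
Mean UMIs of the 23 immediate-early genes per cell, out of 1000, in cells with a UMI of the member (vertical axis) against cells without one (horizontal axis); each point is 1 class in 1 library with at least 20 cells on both sides, and the line marks equality. For Nr4a1, 15 of 17 points lie above the line, for Nr4a2 10 of 13 and for Nr4a3 9 of 17.

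A list of 23 other immediate-early genes (Fos, Jun, Egr, Ier, Klf, Dusp and related genes) was set against the members in the same thinned cells. Cells with a Nr4a1 UMI held more of these UMIs than cells without in 15 of 17 class and library points, with a median ratio of 1.31. In macrophage-like cells the means were 19.2 in cells with Nr4a1 against 14.7 without in the deficient-labelled library, and 25.6 against 17.8 in the wild-type-labelled library. The exceptions were deficient-labelled Ly6C-low monocyte-like cells, 13.3 against 15.8, and wild-type-labelled cDC1-like cells, 12 against 12.1. For Nr4a2 the median ratio was 1.05 and for Nr4a3 it was 1.01, with 9 of 17 points above equality. Points of 1 library share its preparation, and no interval was computed for these means.

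Some of these immediate-early genes also had lower levels in the library labelled deficient. In Ly6C-high monocyte-like cells 5 of 22 measured genes were over 1.5-fold lower and 0 higher, against 7.0% and 7.93% of all measured genes. Foremost were Fosb, an AP-1 subunit, with 195 against 458 CPM (-1.23), the zinc-finger factor Egr1 with 74.1 against 140.0 (-0.92), the monocyte factor Klf4 with 277 against 513 (-0.89) and Fos with 398 against 682 (-0.78). In macrophage-like cells, where Nr4a1 was level, 2 of 23 were lower and 0 higher, beside 5.05% and 9.57% of all measured genes. The lower ones were Egr1 with 278 against 629 (-1.18) and the stress-induced Atf3 with 398 against 602 (-0.60). Fos stood at -0.50 and Myc at -0.48 there. The median of the list was -0.30 in Ly6C-high monocyte-like cells and -0.19 in macrophage-like cells, beside 0.02 and 0.05 for all measured genes.

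Elsewhere 10 of 22 of these genes were lower and 2 higher in T cell-like cells and 8 of 21 lower and 0 higher in neutrophil-like cells, shares well above the 11.0% and 9.22% of all measured genes there. In B cell-like cells 2 of 22 were lower, close to the 8.91% of all measured genes, and 1 was higher, a smaller share than the 16.3%. Egr1 was lower in T cell-like cells (117 against 341, -1.54), neutrophil-like cells (329 against 659) and mature dendritic-like cells (27.5 against 139.7, -2.35). In mature dendritic-like cells 4 of 20 were lower, beside 6.72% of all measured genes, and 2 higher, Klf2 at 1.23 and Ier3 at 0.72, no more than the 14.0% of all measured genes. In cDC1-like cells 2 of 23 were lower, near the 7.46% of all measured genes there, Egr1 at -0.78 and Fos at -0.63. In cDC2-like cells 2 of 23 were lower, beside 4.95% of all measured genes, Egr3 at -0.89 and Atf3 at -0.65. In B cell-like cells the gene furthest apart was Ier3, higher at 81.6 against 10.3 (2.99, 1.61 to 4.88), followed by Klf4 at -0.81 and Myc at -0.72. Heat-shock and stress genes did not share this direction. None of 11 was over 1.5-fold lower in any of the 8 classes, where 4.95% to 11.0% of all measured genes were. From 2 to 5 of the 11 were over 1.5-fold higher in each class, beside 5.30% to 18.0% of all measured genes. The most were in mature dendritic-like cells, and the 2 in T cell-like cells lie near the 18.0% there. The chaperone Hsph1 was higher in Ly6C-high monocyte-like (57.6 against 26.7, 1.11) and macrophage-like cells (161 against 61.7, 1.38). Hspd1, a mitochondrial chaperone, was higher in both as well, at 0.68 and 0.69. Hspa1b in the Ly6C-high class stood at -0.39.

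C/EBP factors, the bZIP proteins named with Nr4a1 in the study's title, did not move as a group in the monocyte and macrophage classes. In Ly6C-high monocyte-like cells 0 of 6 measured members passed 1.5-fold in either direction, beside 7.0% lower and 7.93% higher of all measured genes. Cebpb, the member needed for Ly6C-low monocytes in mice, held 2287 CPM against 1841 (0.31, 0.26 to 0.36), Cebpa, a driver of myeloid commitment, 51.1 against 69.2 (-0.44, -0.72 to -0.15) and Cebpd 79 against 78.5 (0.01). Cebpz stood at -0.28 and Ddit3 at 0.21. In macrophage-like cells 1 of 6 was higher, Cebpg at 56.6 against 32 (0.82), beside 9.57% of all measured genes. Cebpb held 960.5 against 765 (0.33) there. Cebpa held 84 against 77 (0.13), Cebpd 54.8 against 68 (-0.31) and Cebpz stood at -0.15. In mature dendritic-like cells, where Nr4a1 stood at -0.17, 3 of 4 measured C/EBP genes were higher, Cebpb among them (147 against 73.3, 1.01), beside 14.0% of all measured genes.

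Few regulators upstream of the family passed 1.5-fold in Ly6C-high monocyte-like and macrophage-like cells. In Ly6C-high monocyte-like cells 2 of 18 measured genes were higher, the cyclic AMP-responsive factor Crem (268 against 166, 0.69) and the CREB coactivator Crtc3 (87.8 against 52.2, 0.75). A further 2 were lower, Srf (27.3 against 44.9, -0.72), which drives serum-responsive genes, and Mef2a (145 against 226, -0.64). Both counts lie near the 7.93% higher and 7.0% lower of all measured genes in this class. In macrophage-like cells Crem was again higher (279 against 140.2, 0.99) and Mef2c lower (111 against 207, -0.89). Crtc2 stood at 0.42 there, and Ptger2, a prostaglandin E2 receptor, at 0.49 from 51 and 11 UMIs (-0.47 to 1.58). More of this list passed 1.5-fold in mature dendritic-like cells, with 6 of 15 higher and 1 lower, beside 14.0% and 6.72% of all measured genes. B cell-like cells had 2 of 13 higher and 3 lower, beside 16.3% and 8.91%.

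Of the receptor partners and cofactors, 3 of 13 were lower and 0 higher in Ly6C-high monocyte-like cells, against 7.0% and 7.93% of all measured genes. These were Daxx (27.9 against 53.8, -0.95), the coactivator Ncoa1 (40.5 against 69.6, -0.78) and Ncoa7 (-0.63). In macrophage-like cells 0 of 13 passed 1.5-fold, beside 5.05% lower and 9.57% higher of all measured genes. Ncoa7 stood at -0.46 there, the demethylase Kdm1a at -0.33 and Hdac1 at 0.30. Rxra, the pairing partner of Nr4a1 and Nr4a2, held 15.1 against 19 CPM in Ly6C-high monocyte-like cells (-0.33, -0.87 to 0.22) and 12.6 against 12.3 in macrophage-like cells (0.04, -0.53 to 0.65), too few to show a difference.

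Genes of the Ly6C-low monocyte programme, in which Nr4a1 acts in mice, were lower in 6 of 13 measured and higher in 1 within Ly6C-high monocyte-like cells, beside 7.0% lower and 7.93% higher of all measured genes. The list overlaps the markers that gate Ly6C-low cells out of this class (Ace, Treml4, Spn and Pglyrp1 among those measured), so its count is a description only. The lipid carrier Fabp4 (7.33 against 15.9, -1.11), Pglyrp1 (13.2 against 22.8, -0.79) and Ceacam1 (65.8 against 108, -0.71) were among the lower, with Ace (-0.62) and Cx3cr1 (-0.68), and the scavenger receptor Cd36 was the higher one (35.6 against 21.3, 0.74). In macrophage-like cells 3 of 14 were lower and 2 higher, beside 5.05% lower and 9.57% higher of all measured genes. The fractalkine receptor Cx3cr1 held 109 against 293 (-1.43), Fabp4 4.4 against 17.8 (-2.02) and Pparg 9.59 against 16 (-0.74), while Ceacam1 was higher there (0.84). Among genes tied to receptor activation or reported as linked to Nr4a, 4 of 10 were higher in Ly6C-high monocyte-like cells, namely Runx3 (0.93), Havcr2 (0.85), Batf (0.67) and Cd83 (0.60), and 0 were lower, beside 7.93% higher and 7.0% lower of all measured genes. In macrophage-like cells 3 of 11 were higher, Foxo1 (0.97), Havcr2 (0.83) and Il10 (1179 against 768, 0.62), and 0 lower, with Runx3 at 0.52. These stand beside 9.57% higher and 5.05% lower of all measured genes in that class. Other classes did not all lean that way. In T cell-like cells 4 of 13 were higher and 4 lower, beside 18.0% and 11.0% of all measured genes. In cDC1-like cells 2 of 10 were higher and 2 lower, beside 5.30% and 7.46%. In cDC2-like cells 0 of 11 were higher and 1 lower, beside 5.74% and 4.95%. Mature dendritic-like cells did lean that way, with 5 of 10 higher and 0 lower, beside 14.0% and 6.72%. Neutrophil-like cells had 3 of 8 higher and 0 lower, beside 13.3% and 9.22%. B cell-like cells had 1 of 7 higher and 0 lower, beside 16.3% and 8.91%.

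The genes whose levels followed each member most closely were found by Pearson's r of log2(CPM + 1) over 20 class and library points with at least 50 cells, among 8001 genes. These points share libraries and depth, and r is a description. Among the nearest to Nr4a1 were Lypla2 (0.92), an acyl-protein thioesterase, the splicing regulator Tra2a (0.90), Srf (0.88) and the ubiquitin-ligase scaffold Cul3 (0.88). Nearest to Nr4a2 were Oaz1 (0.87), the antizyme that limits polyamines, Gtf2f1 (0.87), Crybg1 (0.87), Ube2s (0.85) and Cdc37 (0.83). Nearest to Nr4a3 were Akap13 (0.88), which anchors protein kinase A, Stat5a (0.84), Ubl5 (0.81), Ncoa4 (0.81) and Rhof (0.79). Between the members r was 0.44 for Nr4a1 and Nr4a2, 0.30 for Nr4a1 and Nr4a3 and 0.56 for Nr4a2 and Nr4a3. The genes above were picked for the highest r among 8001, so the members' values cannot be weighed against theirs.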

How the data were processed

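The 2 10x Genomics 3' V3 libraries were deposited as matrices of counts, whole UMIs per gene and barcode. Per the submitters' processing notes the authors used Cell Ranger with STAR 2.5.1b and the mm10 build, and the file headers name software version 3.0.2. All barcodes in the deposited count matrices held at least 500 UMIs. Groups follow the labels, not the file names.

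Barcodes with over 20% mitochondrial UMIs or under 200 genes were left out, and cells were gated by markers of 22 classes. UMIs of a class were summed in each library and divided by its total (CPM), with exact Poisson intervals for levels, exact conditional binomial intervals for ratios and Clopper-Pearson intervals for shares. A gene was measured in a class with at least 50 UMIs over both libraries. A count of 0 was replaced by 3 counts in ratios. No p-value was computed. The members were named by symbol. From each list the named genes were, in Ly6C-high monocyte-like and macrophage-like cells, up to 4 furthest from a log2 ratio of 0, and elsewhere up to 3 of the immediate-early list, beside Cebpa, Cebpb, Cebpd and Rxra in both monocyte and macrophage gates, and the 5 genes most like each member; a few genes that this rule names are not reported here. The members, lists, gates and thresholds were chosen with earlier results of these data known. Doublets were kept; removing the highest Scrublet scores was an alternative. Others were clusters in place of gates, other mitochondrial limits, gates and totals, means over cells and thinning to 2000 UMIs. The ratios and their intervals were tested on simulated counts with known fold changes. Promoter windows came from RefSeq (GRCm38.p6) and loci from GENCODE M21. Python 3.11.15, numpy 2.4.6, scipy 1.17.1, scikit-learn 1.9.0, scanpy 1.11.5 and leidenalg 0.10.2 were used.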

Additional observations from a re-analysis of the deposited data

Results flagged for a closer look

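The Nr4a3 log2 ratio, deficient-labelled over wild-type-labelled, had its counting interval above 0 in macrophage-like cells (0.31) and cDC1-like cells (0.19) and below 0 in neutrophil-like (-0.29), Ly6C-high monocyte-like (-0.16), cDC2-like (-0.20), mature dendritic-like (-0.12), B cell-like (-0.50) and T cell-like cells (-0.76). The difference between classes was not tested, because each genotype had 1 library.

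Outside the 8 compared classes, in classes with 20 to 49 cells in the smaller library, the interval lay above 0 for Nr4a1 in fibroblast-like cells (0.67, from 336 and 25 UMIs), for Nr4a3 in fibroblast-like cells (0.89, from 283 and 18 UMIs) and for Nr4a3 in Retnla macrophage-like cells (0.31, from 522 and 122 UMIs). The fibroblast-like class held 265 deficient-labelled and 20 wild-type-labelled cells, and its Nr4a3 ratio turned to -0.77 without the highest doublet scores.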

How the results depend on the processing

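For the 24 member ratios of the 8 compared classes, 228 of 243 values under alternatives stayed within the counting interval of the reported one and 15 did not; 0 ratios past 1.5-fold changed sign. In Ly6C-high monocyte-like and macrophage-like cells, all 24 values of the shares of cells at other depths left their interval. Not every share of the other classes did: Nr4a3 in wild-type-labelled cDC1-like cells was 31.2% at 2000 UMIs, inside its interval of 18.4% to 35.6%. With genes of at least 20 UMIs counted as measured, 24 of 112 list counts changed by over 1.5 times. Among the counts given, Nr4a-linked genes in macrophage-like cells then had 5 higher and 1 lower (3 and 0 as reported), those in Ly6C-high monocyte-like cells 1 lower (0), and C/EBP genes 1 lower in each of the Ly6C-high monocyte-like, macrophage-like and mature dendritic-like classes (0). The Nr4a1 ratio in Ly6C-high monocyte-like cells ranged from -0.85 to -0.63 and passed 1.5-fold in 10 of 10 alternatives, with -0.63 for clusters in place of gates. With clusters the Nr4a3 ratio in macrophage-like cells was 0.04. With means over cells the Nr4a3 ratio in Ly6C-high monocyte-like cells was 0.04 and the Nr4a2 ratio in macrophage-like cells 0.33. The Nr4a3 ratio in fibroblast-like cells turned to -0.77 once the highest Scrublet scores were removed. The log2 gap from the highest class to the next moved with clusters to 0.51 for deficient-labelled Nr4a2, 0.75 for deficient-labelled Nr4a3 and 0.81 for wild-type-labelled Nr4a3. With totals without mitochondrial, ribosomal and immunoglobulin genes it moved to 0.10 for deficient-labelled Nr4a1, 1.0 for wild-type-labelled Nr4a1, 0.95 for wild-type-labelled Nr4a2 and 0.35 for wild-type-labelled Nr4a3. By Spearman's rho the 5 most-like genes shared 0 with those by Pearson's r for Nr4a1, 3 for Nr4a2 and 1 for Nr4a3. Apart from the shares of cells, which rise with depth by design, the cause of these moves was not tested. No paired analysis was possible because each group had 1 library. Depth limits Nr4a2 in neutrophil-like cells and each member in classes with few cells.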
